A study of Mus musculus with 12 samples.

Results

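Of the 24062 genes counted in colon tumours of bone marrow chimeric mice, 10 genes of class I antigen processing were taken by name. They were the inducible immunoproteasome subunits Psmb8, Psmb9 and Psmb10, and 7 further members: the proteasome activator genes Psme1 and Psme2, the peptide transporter genes Tap1 and Tap2, the class I chaperone genes Tapbp and Tapbpl, and the trimming peptidase gene Erap1. All 10 passed the filter on low counts, as did 15060 genes in all. The mice had been irradiated with 2 doses of 5 Gy, given marrow, left for 8 weeks and then injected weekly with azoxymethane (AOM), a colon carcinogen, 6 times at 10 mg/kg. Groups are named marrow => host, all on a Balb/c background: WT => St2-/-, St2-/- => St2-/-, St2-/- => WT and WT => WT, with 3 tumours each. St2-/- mice lack ST2, the receptor for interleukin-33, and all 4 groups carried transplanted marrow and had received AOM. A host keeps its own epithelium, stroma and any radioresistant immune cells, so host genotype does not stand for epithelium alone. Tumours were collected at 13 or 14 weeks from the end of AOM dosing, in males except for WT => St2-/- replicate 3. The labels call the tumours of a group biological replicates and give each its own number. Ages are not given in the sources used here.

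Class I molecules display short peptides on the cell surface for inspection by CD8 T cells. Proteasomes cut proteins into peptides, the Tap1-Tap2 transporter carries the peptides into the endoplasmic reticulum, peptidases trim them, and tapasin (Tapbp) helps class I molecules bind those that fit best. Interferon-gamma is known to replace the constitutive catalytic subunits Psmb5, Psmb6 and Psmb7 by Psmb8, Psmb9 and Psmb10, which changes the peptides that are made. Many cells of a tumour, epithelial and immune, can express these genes, so in whole tumours fewer cells of a type and less RNA per cell cannot be told apart.

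Library totals lay between 10293818 and 12962496 gene counts. Il1rl1, which encodes ST2, lay between 7.3 and 25 CPM (read counts scaled for library depth) in the 6 St2-/- hosts, against 36.5 to 275 CPM in the 6 WT hosts, without overlap. All WT hosts carry 5-digit numbers in the labels and all St2-/- hosts 3-digit numbers, and thus a cohort difference and a host difference cannot be told apart. All libraries share the same flow cell and lane in the labels. Colon epithelial markers (Epcam, Krt8, Krt18, Krt20, Cdh1, Vil1, Cdx2) summed to between 4106 and 9614 CPM in St2-/- hosts and between 7633 and 11596 CPM in WT hosts, with none at 0 in any library.

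Psmb9, Tap1, Psmb8 and Tap2 lie side by side in a 34.3 kb stretch of the class II region of the major histocompatibility complex, on chromosome 17 from 34181987 to 34216321 (GRCm38, GENCODE M21). Tapbp lies 252.7 kb away on the same chromosome, from 33915899 to 33929292. Psmb10 is on chromosome 8, Psme1 and Psme2 are neighbours on chromosome 14, and Tapbpl and Erap1 are on chromosomes 6 and 13. Psmb9 and Tap1 are transcribed away from each other, and their promoter windows share 275 bases. The promoters of Psmb9, Psmb8, Psme1 and Erap1 are shown because the first is the shared one and the others hold the interferon-related letters found among the members. Each runs from 250 bases before to 50 bases after the RefSeq start, 5′ to 3′ on the strand of the gene (RefSeq, GRCm38.p6). Capitals mark the interferon-stimulated response element core (GAAA, any 2 bases, GAAA), the gamma-activated site TTCNNNGAA and the GC box GGGCGG, searched on both strands. The windows are chr17:34187281-34187580 on the minus strand, chr17:34197945-34198244 on the plus strand, chr14:55578244-55578543 on the plus strand and chr13:74639603-74639902 on the plus strand.
Psmb9: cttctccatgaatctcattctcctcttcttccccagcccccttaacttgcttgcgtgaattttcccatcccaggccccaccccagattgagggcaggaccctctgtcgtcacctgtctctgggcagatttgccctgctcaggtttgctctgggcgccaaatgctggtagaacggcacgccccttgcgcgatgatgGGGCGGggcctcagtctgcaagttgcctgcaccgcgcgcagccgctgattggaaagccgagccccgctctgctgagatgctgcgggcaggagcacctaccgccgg
Psmb8: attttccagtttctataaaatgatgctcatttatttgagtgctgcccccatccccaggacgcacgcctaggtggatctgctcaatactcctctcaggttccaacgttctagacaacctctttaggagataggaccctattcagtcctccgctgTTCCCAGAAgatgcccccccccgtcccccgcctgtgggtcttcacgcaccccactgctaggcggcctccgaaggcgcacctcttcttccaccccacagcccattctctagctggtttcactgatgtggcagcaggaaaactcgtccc
Psme1: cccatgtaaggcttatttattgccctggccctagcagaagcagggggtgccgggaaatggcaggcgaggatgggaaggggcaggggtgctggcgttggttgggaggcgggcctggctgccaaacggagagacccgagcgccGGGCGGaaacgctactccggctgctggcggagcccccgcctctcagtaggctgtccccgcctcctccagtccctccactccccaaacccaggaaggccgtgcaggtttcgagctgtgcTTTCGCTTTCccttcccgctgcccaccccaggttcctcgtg
Erap1: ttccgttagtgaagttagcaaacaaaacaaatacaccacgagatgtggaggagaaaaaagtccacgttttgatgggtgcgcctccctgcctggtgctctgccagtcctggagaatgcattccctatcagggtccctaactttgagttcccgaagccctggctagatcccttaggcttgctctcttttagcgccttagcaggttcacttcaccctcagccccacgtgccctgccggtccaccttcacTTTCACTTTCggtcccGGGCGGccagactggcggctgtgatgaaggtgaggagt

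Windows were held for 8 of the 10 members and not for Tap2 and Tapbpl. The response element core was in the windows of Erap1, at position -4 (the RefSeq start is position 1), and Psme1, at position 10, and in 3.44% of all 32851 mouse windows. Both lie on the opposite strand, so the strand of the gene reads TTTCACTTTC in Erap1 and TTTCGCTTTC in Psme1. A gamma-activated site was in the window of Psmb8 alone among the members, as TTCCCAGAA at position -97, and in 8.3% of all windows. The GC box was in the windows of 6 of the 8 members, the shared Psmb9 and Tap1 promoter included, and in 35.7% of all windows. The NF-kappaB consensus was in 0 of the 8 and in 8.46% of all. These matches describe letters in short windows.

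Tumours of St2-/- hosts held less mRNA of the whole set than tumours of WT hosts. Averaged over both marrows, 9 of the 10 members fell and none rose (edgeR quasi-likelihood test, Benjamini-Hochberg adjusted p under 0.05 over 15060 genes). By the same test 1.08% of all genes fell. For each of the 10 members all 6 St2-/- hosts lay below all 6 WT hosts, which was so for 1.71% of genes. Log2 fold changes had a median of -1.27 over the 10 members, -2.13 over the inducible subunits and -0.93 over the 7 others, against -0.0015 over all genes.

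**Figure D1:**
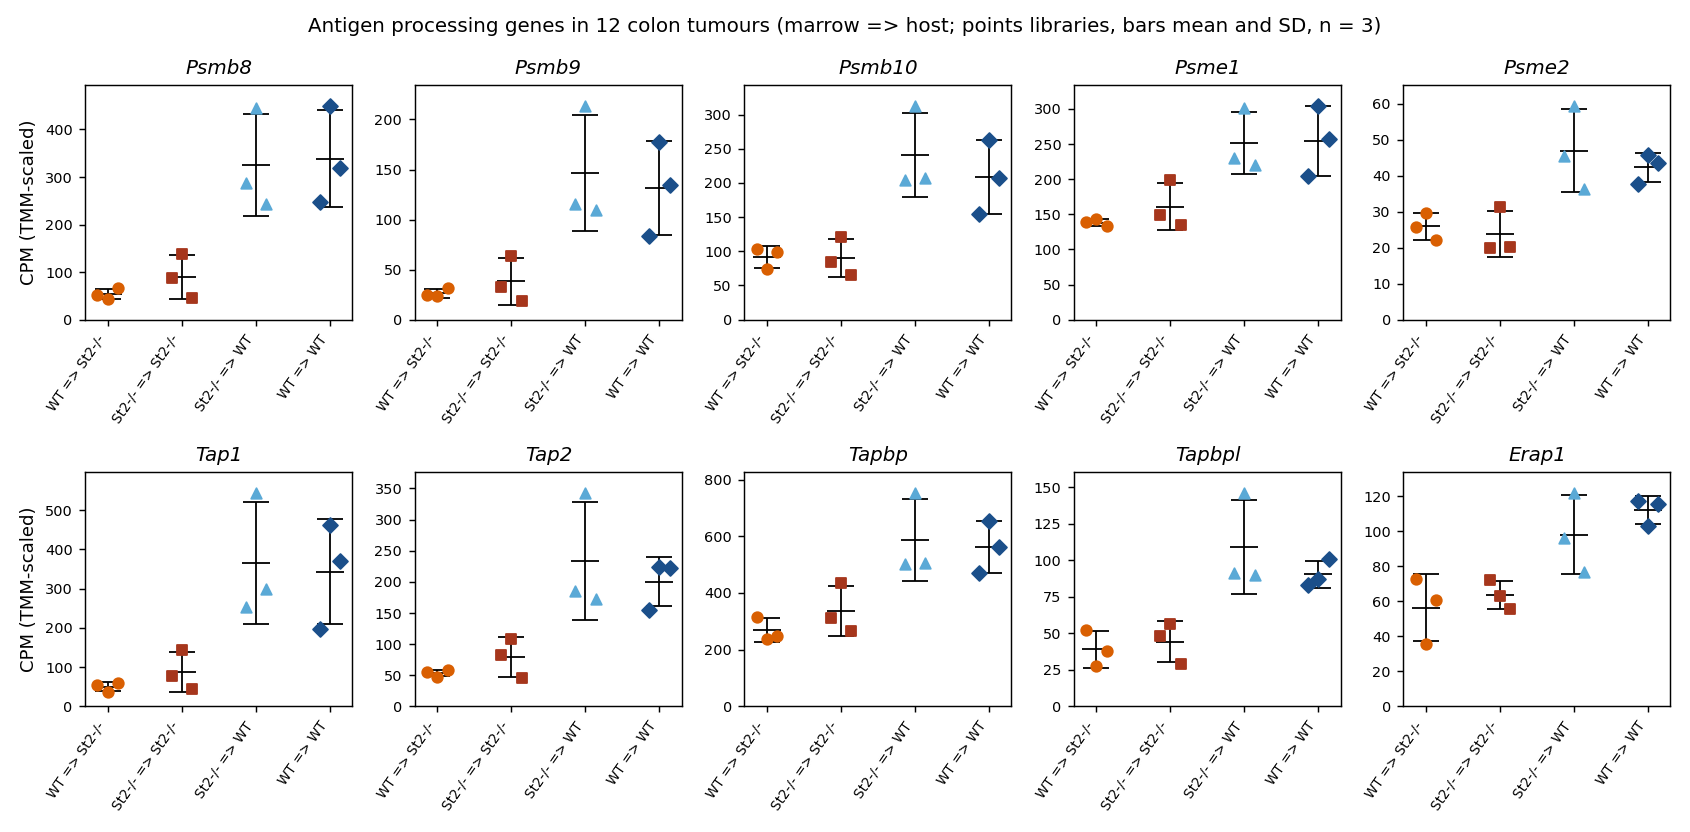
TMM-scaled CPM of the 10 members by group. Points are the 3 libraries of a group, and bars give mean and SD. In every panel the 6 libraries of St2-/- hosts on the left lie below the 6 of WT hosts on the right, with narrow gaps in Psme1 and Erap1.

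Psmb8 supplies the chymotrypsin-like site of the immunoproteasome in place of Psmb5. It had 52.6, 44.3 and 65.8 CPM in WT => St2-/- and 87.4, 138 and 46.0 CPM in St2-/- => St2-/-, against 287, 446 and 243 CPM in St2-/- => WT and 248, 449 and 318 CPM in WT => WT. The highest St2-/- host, St2-/- => St2-/- replicate 2, stood well under the lowest WT host. Averaged over marrows Psmb8 fell by 2.24 on the log2 scale (SE 0.28), or 4.73-fold, with an edgeR adjusted p of 0.00454.

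Psmb9 takes the place of Psmb6 and lies head to head with Tap1. It had 24.3, 23.2 and 31.5 CPM in WT => St2-/- and 32.8, 63.5 and 18.3 CPM in St2-/- => St2-/-, against 116, 213 and 110 CPM in St2-/- => WT and 83.4, 177 and 135 CPM in WT => WT. The same library, St2-/- => St2-/- replicate 2, came nearest to the WT hosts without reaching them. Psmb9 fell by 2.13 on the log2 scale (SE 0.32, edgeR adjusted p = 0.00926), or 4.38-fold.

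Psmb10, the inducible counterpart of Psmb7, had 104, 73.4 and 98.8 CPM in WT => St2-/- and 84.6, 121 and 65.8 CPM in St2-/- => St2-/-, against 205, 312 and 207 CPM in St2-/- => WT and 155, 263 and 207 CPM in WT => WT. The groups did not overlap, but the step between hosts was smaller than for the other inducible subunits. Psmb10 fell by 1.30 on the log2 scale (SE 0.20, edgeR adjusted p = 0.00949), or 2.46-fold.

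The transporter genes were among the members with the largest differences. Tap1 had 54.7, 37.2 and 59.6 CPM in WT => St2-/- and 78.1, 144 and 43.3 CPM in St2-/- => St2-/-, against 254, 544 and 299 CPM in St2-/- => WT and 198, 463 and 369 CPM in WT => WT. Its hosts were separate, and its difference was the largest of the 10 members: it fell by 2.41 on the log2 scale (SE 0.34, edgeR adjusted p = 0.00777), or 5.3-fold. Tap2, the other subunit of the transporter, had 54.8, 47.5 and 57.7 CPM in WT => St2-/- and 83.4, 109 and 44.9 CPM in St2-/- => St2-/-, against 186, 343 and 173 CPM in St2-/- => WT and 155, 224 and 222 CPM in WT => WT. Again no St2-/- host reached a WT host, and Tap2 fell by 1.74 on the log2 scale (SE 0.24, edgeR adjusted p = 0.00737), or 3.33-fold.

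The loading chaperones followed with smaller differences. Tapbp, tapasin, had 316, 239 and 248 CPM in WT => St2-/- and 311, 434 and 265 CPM in St2-/- => St2-/-, against 501, 752 and 505 CPM in St2-/- => WT and 469, 655 and 561 CPM in WT => WT. It fell by 0.93 on the log2 scale (SE 0.17, edgeR adjusted p = 0.0237). Tapbpl, a tapasin relative that exchanges peptides on class I molecules outside the loading complex, had 41.8 ± 12.3 CPM in St2-/- hosts and 99.5 ± 23.4 CPM in WT hosts (SD, n = 6 each). It fell by 1.25 on the log2 scale (SE 0.21, edgeR adjusted p = 0.0191).

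Psme1 encodes a subunit of the interferon-inducible ring that opens the proteasome. It had 138, 143 and 133 CPM in WT => St2-/- and 149, 199 and 135 CPM in St2-/- => St2-/-, against 230, 302 and 221 CPM in St2-/- => WT and 204, 304 and 257 CPM in WT => WT. The top St2-/- host at 199 CPM almost met the bottom WT host at 204 CPM, and Psme1 fell by 0.76 on the log2 scale (SE 0.14, edgeR adjusted p = 0.0237). Its partner in the ring, Psme2, averaged 24.9 ± 4.84 CPM in St2-/- hosts and 44.7 ± 8.21 CPM in WT hosts (SD, n = 6 each) and fell by 0.84 on the log2 scale (SE 0.16, edgeR adjusted p = 0.0299). Of the 50-base windows of Psme2, 28.3% also occur in Psme2b, a near-identical copy on chromosome 11 that took more reads (136 to 223 CPM in St2-/- hosts, 289 to 400 CPM in WT hosts), so the split of reads between these genes is uncertain. Psme2b fell by 1.00 on the log2 scale (SE 0.15, edgeR adjusted p = 0.00944).

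Erap1, which trims peptides inside the endoplasmic reticulum, missed the threshold. It had 72.8, 35.6 and 60.9 CPM in WT => St2-/- and 71.8, 62.9 and 55.7 CPM in St2-/- => St2-/-, against 96.0, 122 and 76.4 CPM in St2-/- => WT and 117, 103 and 116 CPM in WT => WT. Its log2 fold change was -0.81 (SE 0.17, edgeR adjusted p = 0.0512). Erap1 passed with DESeq2 (adjusted p = 0.000981) and with limma-voom (adjusted p = 0.00403).

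Some counts may lack reads from stretches shared with other genes. The deposited counts set apart ambiguous reads (0.653% to 1.01% of each column's total) and reads without a unique alignment (36.7% to 48.9%). Stretches of Psme2, Psme2b and Psmb5 that also occur in other genes may thus be undercounted. The strand setting of the counting is not given in the sources used here. Exons overlap on opposite strands by 212 bases between Psmb9 and Tap1, by 834 bases between Erap1 and Cast, by 416 bases between Tapbp and Gm19412 and by 259 bases between Psmb8 and Gm20496. If strand was not used, reads from these stretches could not be told apart and may have been set apart as ambiguous.

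Smooth muscle and neuron or glia markers set 4 libraries apart. Smooth muscle markers summed to 3275 and 1539 CPM in WT => St2-/- replicates 2 and 3, against 292 CPM in replicate 1, and to 2726 and 1382 CPM in St2-/- => WT replicates 1 and 2, against 444 CPM in replicate 3. The other 2 groups held 186 to 440 CPM in St2-/- => St2-/- and 193 to 422 CPM in WT => WT. Neuron and glia markers were high in the same 4 libraries, at 47.8 and 20.8 CPM in WT => St2-/- and 41.7 and 14.7 CPM in St2-/- => WT, against 1.72 to 7.63 CPM in the other 8. The part of these tissues in the members' values was not tested. The calls did not hold without either pair, each of which leaves 1 library in its group. Without WT => St2-/- replicates 2 and 3, edgeR called 0 of the 10 members and 6 lower genes in all (0.0384%), while the 10 members stayed lower in St2-/- hosts, Psmb8 at -2.26 (adjusted p = 0.108), Tap1 at -2.35 and Psmb10 at -1.21. Without St2-/- => WT replicates 1 and 2, an alternative chosen after seeing the data, edgeR also called 0 of the 10 (0.152% of all genes fell), with Psmb8 at -2.03 (adjusted p = 0.0541) and Tap1 at -2.26 (adjusted p = 0.0628). Among St2-/- hosts, WT => St2-/- replicate 2 had the lowest value of 5 members and replicate 3 that of 1. Leaving out any 1 library gave between 5 and 10 calls (0.463% to 2.17% of all genes fell). There were 5 calls without St2-/- => St2-/- replicate 1 (0.463%) and 5 without WT => WT replicate 3 (0.521%). Without the female tumour, WT => St2-/- replicate 3, there were 6 (0.725%). Psmb8, Psmb9, Psmb10, Tap1 and Tap2 passed in 19 of 21 alternatives, all but the removal of either pair.

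Both collection times held both hosts. At 13 weeks the difference in mean log2 CPM between 3 St2-/- hosts and 4 WT hosts was -2.75 for Psmb8, -2.87 for Tap1 and -1.14 for Erap1. At 14 weeks, with 3 St2-/- hosts and 2 WT hosts, it was -1.69 for Psmb8, -1.97 for Tap1 and -0.45 for Erap1. That the hosts did not overlap at either time follows from their separation over all 12 libraries and adds nothing to it. Whether the times differ was not tested.

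The host difference was then read within each marrow. With WT marrow, all 10 members were lower in WT => St2-/- than in WT => WT, and Psmb8 alone passed, at -2.64 on the log2 scale (SE 0.40, edgeR adjusted p = 0.0413), where 0.12% of all genes fell. Tap1 was at -2.77 (SE 0.48, edgeR adjusted p = 0.0554) and Psmb9 at -2.32 (SE 0.45, edgeR adjusted p = 0.0622). DESeq2 called 9 members (2.86% of all genes fell by it) and limma-voom 8 (1.33% of all). edgeR called 0 when only these groups were fitted (0% of all genes fell) and 0 with weeks as a covariate (0.0266%). With 1 library left out it called between 0 and 4 (0% to 0.547%).

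With St2-/- marrow, all 10 members were also lower in St2-/- => St2-/- than in St2-/- => WT, with log2 fold changes from -2.05 for Tap1 to -0.63 for Erap1 and a median of -1.36. edgeR called 0 of the 10 (smallest adjusted p = 0.135, for Psmb10, where 0.0531% of all genes fell). All 10 had an unadjusted edgeR p under 0.05, as did 1809 of the 15060 genes in either direction. DESeq2 called 7 (1.38% of all genes fell by it) and limma-voom 10 (7.7% of all). In fully deficient tumours, St2-/- => St2-/- against WT => WT, the median was -1.11. There edgeR called 0 (smallest adjusted p = 0.148, where 0.0199% of all genes fell). It put 10 under an unadjusted p of 0.05, and 2067 genes in all. DESeq2 called 8 (1.76% of all genes fell by it) and limma-voom 10 (6.39% of all). The 4 host comparisons share libraries, and they are not independent of each other. Within a marrow, tissue markers moved as well. The median log2 fold change of 7 smooth muscle markers was 2.99 with WT marrow and -2.46 with St2-/- marrow. In each, 0 were called by edgeR and 5 had an unadjusted edgeR p under 0.05. Over all genes 2514 had such a p with WT marrow and 1809 with St2-/- marrow. The neuron and glia medians were 2.84 and -2.91. The members were lower under both. The 4 neutrophil markers had a median of -2.43 with WT marrow (0 called by edgeR, 4 unadjusted) and of -0.10 with St2-/- marrow. The part of these markers in the host differences was not tested.

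**Figure D2:**
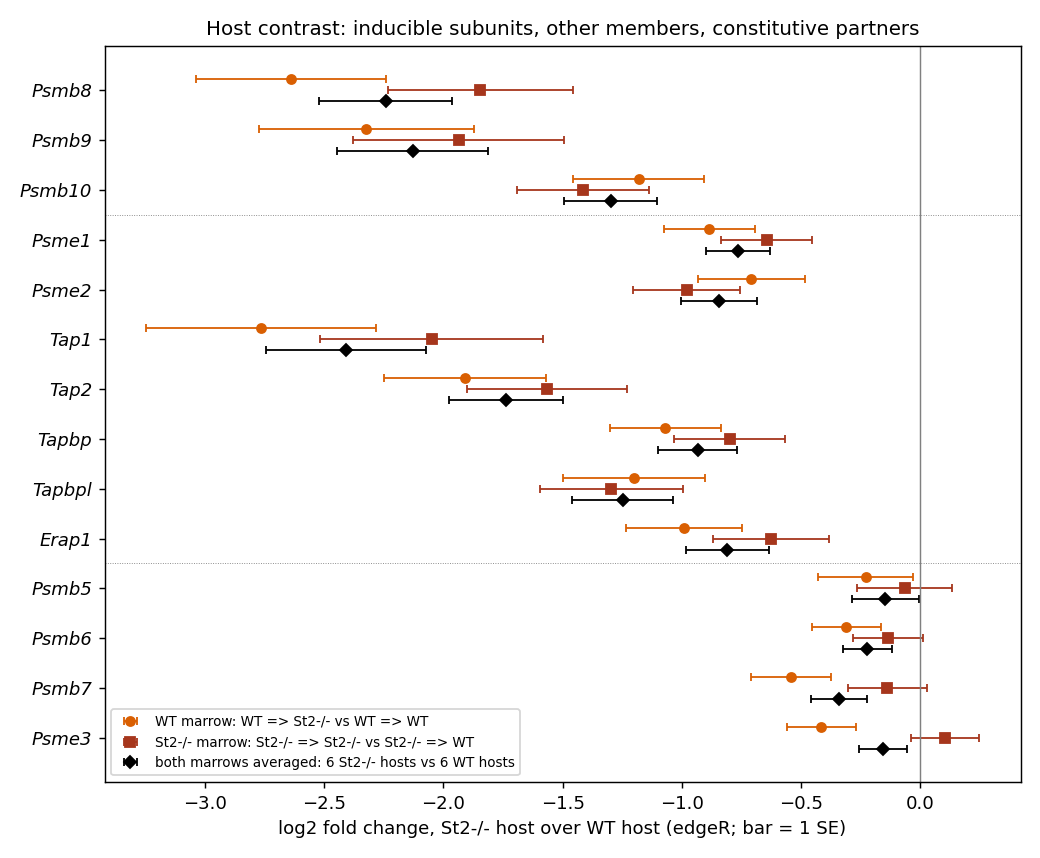
Log2 fold change of St2-/- hosts over WT hosts with 1 SE, from edgeR, for the 10 members and the constitutive partners Psmb5, Psmb6, Psmb7 and Psme3. Points give WT marrow, St2-/- marrow and their average. Tap1, Psmb8, Psmb9 and Tap2 lie farthest left, and the partners lie near 0.

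Whether the host difference depended on the marrow was tested by the interaction, and no member passed (edgeR 0 of 10, 0 at an unadjusted p under 0.05, smallest adjusted p = 0.741; DESeq2 0 and limma-voom 0). The estimates were wide. Psmb8 differed by 0.79 between marrows (SE 0.53) and Tap1 by 0.72 (SE 0.64), in the direction of a smaller host difference with St2-/- marrow, while Psmb10 was at -0.23 (SE 0.38). The 7 smooth muscle markers had a median interaction of -5.52.

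Marrow genotype itself gave no call in any member. Averaged over hosts, St2-/- marrow against WT marrow had a median log2 fold change of 0.21, from -0.01 for Erap1 to 0.45 for Tap1 (SE 0.32), and edgeR called 0 of 10, with 0 at an unadjusted p under 0.05, as did DESeq2 (0) and limma-voom (0). In WT hosts the members lay between -0.19 for Erap1 and 0.27 for Tapbpl, and in St2-/- hosts between -0.12 for Psme2 and 0.81 for Tap1 (SE 0.46). These directions were not stable. Without St2-/- => WT replicate 2 all 10 members were lower with St2-/- marrow in WT hosts, against 3 in the full data, and limma-voom put 6 of 10 lower in the average, against 1 by edgeR. In all 3 marrow comparisons 0% of all genes fell by edgeR. Ordered by mean Psmb8, the groups ran from 54.3 ± 10.8 CPM in WT => St2-/- and 90.5 ± 46.1 CPM in St2-/- => St2-/- to 325 ± 107 CPM in St2-/- => WT and 338 ± 102 CPM in WT => WT (SD, n = 3 each). The neighbours that share a host did not differ beyond their spread in this order, and the step lay between hosts.

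The inducible subunits were set against their constitutive partners within each library, which removes depth. Psmb5, Psmb6 and Psmb7 carry the corresponding catalytic sites of the standard proteasome, and Psme3 forms a nuclear activator ring. None of the 4 passed in the host average: Psmb5 was at -0.15 (SE 0.14), Psmb6 at -0.22 (SE 0.10), Psmb7 at -0.34 (SE 0.12) and Psme3 at -0.16 (SE 0.10) on the log2 scale, and Psmb7 alone had an unadjusted edgeR p under 0.05. DESeq2 called 0 of them and limma-voom 1. Psmb11, a thymic subunit, had no more than 0.158 CPM in any library and was not tested.

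All 5 ratios of an inducible gene to its partner fell in St2-/- hosts (exact two-sided permutation test over all ways to assign 6 of the 12 libraries to St2-/- hosts, adjusted over the 5). The log2 ratio Psmb8/Psmb5 averaged 0.55 ± 0.59 in St2-/- hosts and 2.68 ± 0.46 in WT hosts (SD, n = 6 each), a difference of -2.13 (exact permutation adjusted p = 0.00361). For Psmb9/Psmb6 the difference was -1.93 and for Psmb10/Psmb7 it was -0.96, each without overlap of hosts and with the same adjusted p from the exact permutation test, which rests on the smallest p these assignments allow (0.00216). The differences were -0.60 for Psme1/Psme3 and -0.69 for Psme2/Psme3 (exact permutation adjusted p = 0.0135 and 0.0173), with some overlap. At 13 weeks the difference was -2.57 for Psmb8/Psmb5, -2.29 for Psmb9/Psmb6 and -1.09 for Psmb10/Psmb7. At 14 weeks the difference was -1.50 for Psmb8/Psmb5, -1.51 for Psmb9/Psmb6 and -0.73 for Psmb10/Psmb7. All 5 were called under every alternative run for these ratios, the removal of WT => St2-/- replicates 2 and 3 included. The removal of St2-/- => WT replicates 1 and 2 was not run for them.

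**Figure D3:**
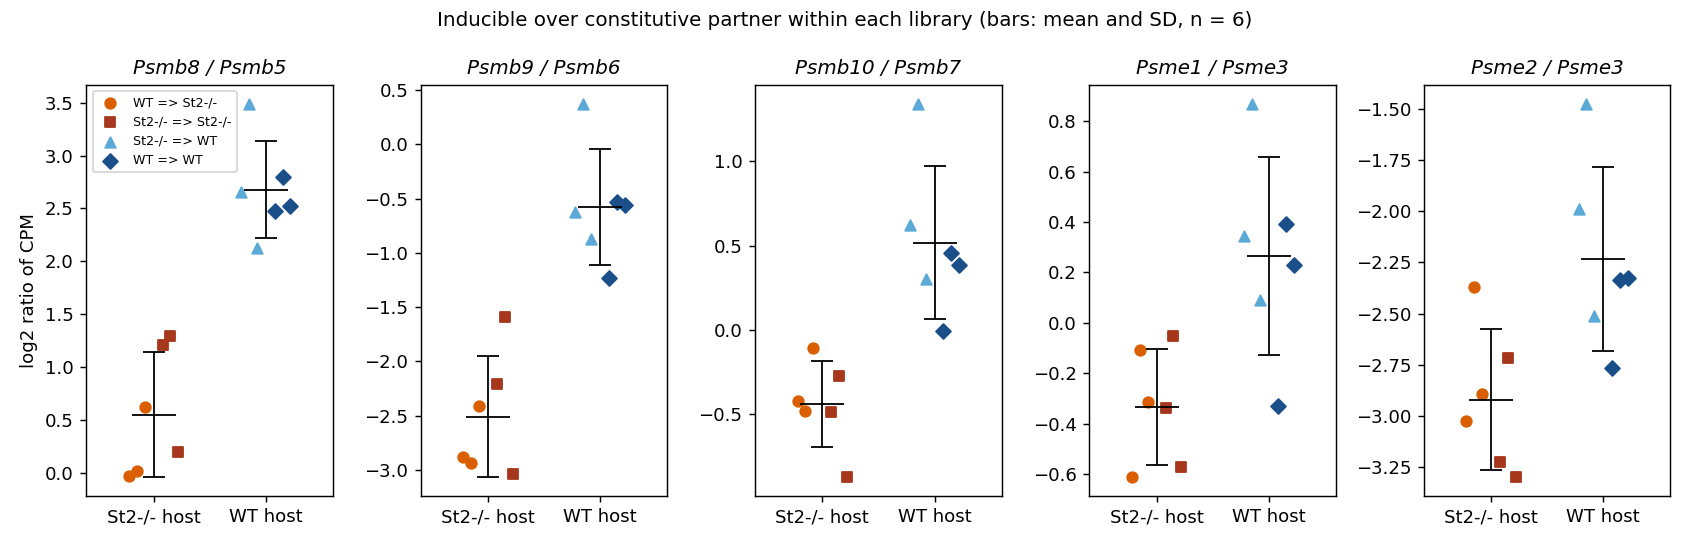
Log2 ratio of the CPM of an inducible gene to that of its constitutive partner in each library, St2-/- hosts left and WT hosts right. Bars give mean and SD over 6 libraries. The hosts are separate for the 3 catalytic pairs and overlap for the 2 activator pairs.

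As levels per kb of exon, Psmb8 made up 20.7% to 39.5% (median 26.3%) of the sum of Psmb8 and Psmb5 in St2-/- hosts, against 53.8% to 75.0% (median 61.6%) in WT hosts. Psmb9 made up 5.84% to 14.5% of Psmb9 and Psmb6 in St2-/- hosts, against 17.9% to 39.9% in WT hosts. Psmb10 made up 52.3% to 65.1% of Psmb10 and Psmb7 in St2-/- hosts and 66.7% to 83.6% in WT hosts. The length joins all annotated exons, 1705 bases for Psmb10 and 3421 for Psmb7, and may differ from that of the mRNA present. Without division by length Psmb10 was the smaller in every St2-/- host, with a log2 CPM ratio to Psmb7 of -0.87 to -0.105. The sizes of all these shares thus depend on the lengths used. These are shares of mRNA, not of assembled proteasomes, and 54.1% of the 50-base windows of Psmb5 also occur in other genes, mostly Gm3375, so its level is uncertain.

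Ratios among the members show how the inducible subunits compare with the other 7. Of 21 ratios, 17 were lower in St2-/- hosts. In either direction 18 passed (exact permutation test adjusted over the 21) and 10 had no overlap of hosts. Those that passed include Psmb9/Tap1, Psmb10/Tap1 and Psmb10/Tap2, which were higher in St2-/- hosts, Psmb10/Tap1 without overlap. The ratios share genes and are not independent of each other. Psmb8 and Psmb9 were lower relative to each of Psme1, Psme2, Tapbp, Tapbpl, Erap1 and Tap2, and these 12 ratios changed by between -1.52 for Psmb8/Psme1 and -0.42 for Psmb9/Tap2. Relative to Tap1 neither was lower. The log2 ratio Psmb8/Tap1 was 0.09 ± 0.12 in St2-/- hosts and -0.06 ± 0.26 in WT hosts (SD, n = 6 each), a difference of 0.15 (exact permutation adjusted p = 0.264), and Psmb9/Tap1 was 0.27 higher in St2-/- hosts (exact permutation adjusted p = 0.0278).

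Psmb10, the inducible subunit outside the chromosome 17 cluster, gave other ratios than Psmb8 and Psmb9. Psmb10/Tap1 rose by 1.12 and Psmb10/Tap2 by 0.44 in St2-/- hosts (exact permutation adjusted p = 0.00455 and 0.0278), so both transporter genes fell further than this subunit. Psmb10/Tapbpl differed by -0.02 (exact permutation adjusted p = 0.894) and changed sign in 3 of the alternatives. Psmb10/Erap1 differed by -0.47 (exact permutation adjusted p = 0.0646). Ordered by log2 fold change, the 4 genes of the chromosome 17 cluster, 2 inducible subunits and 2 transporter genes, held the 4 largest falls, and no test of position was made.

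**Figure D4:**
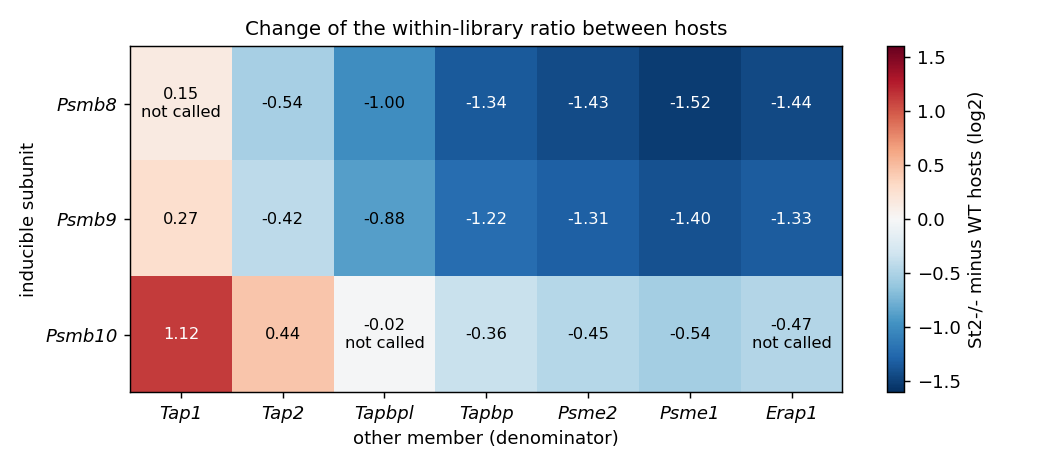
Difference between St2-/- and WT hosts in the mean log2 ratio of each inducible subunit (rows) to each other member (columns), 6 libraries each. Negative values mean that the subunit fell further than the other member. The Tap1 column is positive in all 3 rows, and the ratios that did not pass are marked.

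Genes next to the cluster were looked at after these values had been seen. Within 100 kb on either side, 9 further genes were tested and 1 passed, H2-DMa, a class II peptide exchange factor, at -1.46 (SE 0.31, edgeR adjusted p = 0.0493). H2-Ab1 was at -1.57 (edgeR adjusted p = 0.0748), H2-DMb1 at -1.70 (edgeR adjusted p = 0.0699) and H2-Eb1 at -1.52 (edgeR adjusted p = 0.0873). Brd2, a bromodomain gene whose annotated span overlaps that of H2-DMa, was at -0.09 (SE 0.09), and H2-Ob, an inhibitor of peptide exchange on class II, at 0.49 (SE 0.89).

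The rest of the pathway was read from lists, in the host average. Over all 15060 genes, 3099 had an unadjusted edgeR p under 0.05 in that comparison. Of the 14 constitutive core subunits of the proteasome, which include the 3 partners, edgeR called 0 (10 at an unadjusted p under 0.05, DESeq2 4 and limma-voom 9), with a median of -0.30. Psma6 was at -0.37 (edgeR adjusted p = 0.0674) and Psma1 at -0.40 (edgeR adjusted p = 0.0748). Of 29 cap, activator and assembly genes edgeR called 0 (9 unadjusted, DESeq2 3 and limma-voom 8), with a median of -0.19, and Psmd14, a deubiquitinase of the lid, was at -0.37 (edgeR adjusted p = 0.0764). The median of the core list was thus far smaller in size than the -2.13 of the inducible subunits.

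Among 8 general chaperones and translocon genes of the endoplasmic reticulum, edgeR called only Calr, which fell by 0.54 on the log2 scale (SE 0.10, edgeR adjusted p = 0.0330). All 8 were lower, 7 at an unadjusted p under 0.05, and DESeq2 called 4 and limma-voom 5. Calr encodes calreticulin, which is part of the loading complex. Pdia3, its disulphide isomerase partner, was at -0.35 (edgeR adjusted p = 0.104). Of 9 other peptidases edgeR called 0 (1 unadjusted, DESeq2 0 and limma-voom 1), and Lap3, a cytosolic leucine aminopeptidase, was at -0.50 (edgeR adjusted p = 0.148).

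Class I molecules themselves were lower with the members. Of 9 genes listed 7 were tested, and all 7 fell, with a median of -1.52. B2m, the light chain of every class I molecule, fell by 1.91 on the log2 scale (SE 0.26, edgeR adjusted p = 0.00698), H2-D1 by 1.35 (SE 0.20) and H2-T23 by 1.35 (SE 0.19). Of 11 interferon-gamma signalling genes 4 fell. Irf1, a factor that induces class I pathway genes, fell by 1.76 on the log2 scale (SE 0.21, edgeR adjusted p = 0.00331). Ifng, the cytokine, had 0 to 2 reads in each St2-/- host, 5 in all, against 6 to 48 reads in each WT host, 116 in all (edgeR adjusted p = 0.0124). At counts this low no fold change is given for it. DESeq2 called 7 of the class I genes and 7 of the signalling genes, and without WT => St2-/- replicates 2 and 3 edgeR called 0 of either.

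**Figure D5:**
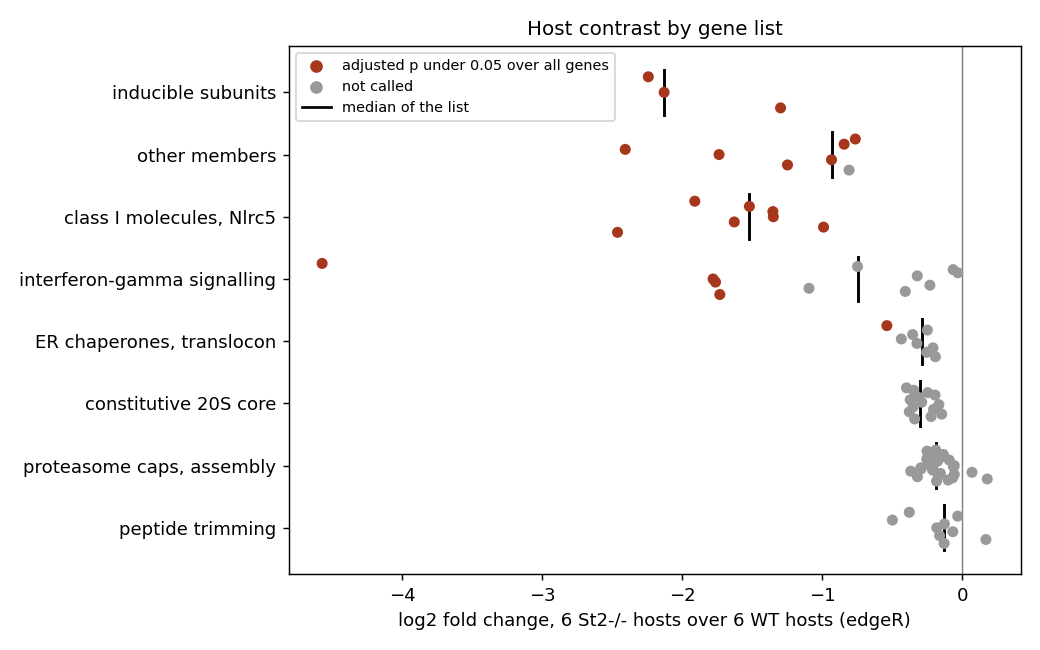
Log2 fold change of 6 St2-/- hosts over 6 WT hosts for each tested gene of 8 lists. Red points passed the test over all genes, grey points did not, and the black bar is the list median. The inducible subunits, other members and class I molecules lie left of the constitutive core, cap and trimming genes.

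The 6 genes outside the set whose log2 CPM followed the mean profile of Psmb8, Psmb9 and Psmb10 most closely over the 12 libraries were Ifi47, H2-D1, Gm12250, Igtp, Gbp2 and Cxcl10. Because the hosts form separate clusters, the correlation is given within each host (Pearson r, 6 libraries), as a description of libraries that share depth and tissue. Within St2-/- hosts it was 0.93 for Ifi47, 0.98 for H2-D1, 0.94 for Igtp and 0.92 for Gbp2. Within WT hosts it was 0.99 for Ifi47, 0.91 for H2-D1, 0.96 for Igtp and 0.94 for Gbp2. Ifi47 and Igtp are interferon-inducible GTPases, Gbp2 is a guanylate-binding protein, and Cxcl10 is a T cell attracting chemokine. Libraries inside a host also ranked alike: St2-/- => St2-/- replicate 2 had the highest value of 9 of the 10 members among St2-/- hosts, and St2-/- => WT replicate 2 that of 8 among WT hosts.

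Markers of cells that could carry these mRNAs moved in part with the host. Counts given as unadjusted are from edgeR, where 3099 of the 15060 genes had an unadjusted p under 0.05. T and NK cell markers summed to between 7.28 and 47.9 CPM in St2-/- hosts and between 27.1 and 73.6 CPM in WT hosts. Of 7 tested edgeR called 0 (2 unadjusted, DESeq2 2 and limma-voom 2), and Klrb1c was at 0 in 4 libraries. Macrophage and monocyte markers summed to between 169.9 and 709.7 CPM in St2-/- hosts and between 359 and 1102 CPM in WT hosts, with 0 of 7 called (2 unadjusted, DESeq2 0 and limma-voom 0). Dendritic cell markers summed to between 12.8 and 36.7 CPM in St2-/- hosts and between 30.1 and 57.6 CPM in WT hosts, with a median log2 fold change of -1.21, and 1 of 5 fell (4 unadjusted, DESeq2 3 and limma-voom 3). Mast cell markers ran the other way, with sums between 177 and 1871 CPM in St2-/- hosts and between 83.9 and 247 CPM in WT hosts. Of these edgeR called 0 of 5 (3 unadjusted, DESeq2 3 and limma-voom 0). Endothelial markers were also higher, with a median log2 fold change of 0.47 and 0 of 4 called (2 unadjusted, DESeq2 1 and limma-voom 1). B and plasma cell markers had a median of 0.35 and fibroblast markers of -0.24, with 0 called by edgeR in each. Pan-leukocyte markers had a median log2 fold change of -0.39, with 0 of 6 called (0 unadjusted, DESeq2 0 and limma-voom 0). Epithelial markers had a median of -0.56, with 0 of 7 called (4 unadjusted, DESeq2 1 and limma-voom 3). All of these sums overlapped between the 6 St2-/- and the 6 WT hosts. Within a marrow some did not: dendritic markers summed to 12.8 to 27.9 CPM in WT => St2-/- and 36.9 to 56.4 CPM in WT => WT, mast cell markers to 222 to 1871 CPM in WT => St2-/- and 94.3 to 176 CPM in WT => WT, and neutrophil markers to 8.00 to 95.9 CPM in WT => St2-/- and 166 to 431 CPM in WT => WT. Epithelial markers summed to 6059 to 7219 CPM in St2-/- => St2-/- and 8970 to 11596 CPM in St2-/- => WT. Endothelial markers summed to 123 to 169 CPM in St2-/- => St2-/- and 78.7 to 119 CPM in St2-/- => WT. The part of all these markers in the falls of the members was not tested.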

How the data were processed

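RNA from 12 snap-frozen colon tumours was sequenced as single-end 50-base reads from TruSeq libraries, per the labels' protocols. The authors deposited a count table (raw reads, 24062 genes). Its 5 entries that name no gene were left out. They held 52.3% to 59.6% of each column's total in St2-/- hosts and 49.8% to 53.2% in WT hosts. TMM factors were 0.968 to 1.12 in St2-/- hosts and 0.899 to 0.986 in WT hosts. The part of these library differences in the host difference was not tested. TopHat, Bowtie2 and the builds GRCm38 and mm10 are named in the submitters' processing notes, and the counting step and its strand setting are not given in the sources used here. In R 4.3.3, edgeR 4.0.16 with TMM scaling and filterByExpr (minimum count 10) kept 15060 genes. A quasi-likelihood model with 1 coefficient per group gave 8 contrasts, two-sided, called at an adjusted p under 0.05. P-values measure the spread between the tumours sampled. CPM are TMM-scaled, and ratios used log2 CPM with a prior count of 2. Alternatives were DESeq2 1.42.0, limma 3.58.1 (voom), size factors, other filters, a replicate block, weeks, only the groups compared, and libraries left out. Summing Psme2 and Psme2b, and leaving out St2-/- => WT replicates 1 and 2 together, were chosen after seeing the data. The members and lists were chosen with earlier results of these data known. Named genes were all members, partners, up to 3 genes of smallest p per list and the 6 closest in profile; 1 gene so named is not reported here. The edgeR and permutation steps were tested on simulated data. Coordinates, exon lengths and shared 50-base windows came from GENCODE M21, and promoters and synonyms from RefSeq. No pair of libraries of the same group had identical or near-identical counts, and pairs across groups were not compared in this way. Python 3.11.15 made the figures.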

Additional observations from a re-analysis of the deposited data

How the results depend on the processing

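All 10 members had a negative log2 fold change in the host average in every alternative run. Their called number was 10 with DESeq2 size factors (1.04% of all genes fell), 10 with DESeq2 (4.56%), 10 with limma-voom (7.25%) and 10 with no filter (0.818%). It was 9 with a CPM filter (1.1%), 8 with weeks as a covariate (0.837%) and 9 with Psme2 and Psme2b summed (1.06%). It was 0 without WT => St2-/- replicates 2 and 3 and 0 without St2-/- => WT replicates 1 and 2 (chosen after seeing the data), where fewer samples set the spread, and 5 to 10 with 1 library left out. With 1 library left out, 0.463% to 2.17% of all genes fell. The members lost most often were Psme1, Psme2, Tapbp and Erap1. With WT marrow the main count of 1 became 9 with DESeq2, 8 with limma-voom, 0 with weeks, 0 with only the groups compared, 0 without WT => St2-/- replicates 2 and 3 (the lone library was taken to vary like the other groups), 0 without St2-/- => WT replicates 1 and 2, and 0 to 4 with 1 library left out; the cause was not tested. With St2-/- marrow the main count of 0 became 7 with DESeq2 and 10 with limma-voom, and in full loss 8 and 10, and the cause was not tested. Ratios had fewer alternatives: a prior count of 0.5, the replicate block, 1 library left out, and the removal of WT => St2-/- replicates 2 and 3. Of the 21 member ratios 16 to 19 were called across these, and the 5 partner ratios were called in all of these. The removal of St2-/- => WT replicates 1 and 2 and the weeks covariate were not run for ratios. Replicate numbers do not pair the samples: of 18 same-numbered pairs 5 correlated above 0.1, between -0.44 and 0.31. With the replicate block, 9 members were called in the host average (0.777% of all genes fell), 0 with WT marrow (0.073%), and 17 of the 21 ratios. Fitting only the groups compared was not run for averages and the interaction, which use all groups. Intervals of counting error do not limit these genes, whose lowest value was 18.3 CPM for Psmb9.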
